A study of Mus musculus with 5 samples.

Results

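The stefin A cluster of the mouse is a run of neighbouring genes for small inhibitors of cysteine proteases, and 8 of its genes are described here in lungs of late embryos: Stfa1, Stfa2, Stfa2l1, Stfa3, Cstdc4, Cstdc5, Csta2 and Csta3. They were taken by symbol from the 32285 genes in the deposited counts, and each symbol named 1 gene. The genes were selected on earlier results of these same data, in which KO lungs held fewer of their transcripts than Het lungs. Their values in Het against KO lungs are therefore given as a description. The samples were whole lungs, dissociated to single cells, of 2 Zswim8 +/- embryos (Het1 and Het2) and 3 Zswim8 -/- embryos (KO1, KO2 and KO3), all at E18.5, just before birth, with 1 library per embryo. Zswim8 encodes the substrate receptor of a ubiquitin ligase that acts on Argonaute proteins bound to certain microRNAs. The Het lungs carry 1 mutant allele, so no wild-type lung was compared. The labels name no strain, and the labels' protocols say that red cells were lysed before loading on a droplet system that reads transcripts from their 3' ends.

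Stefins are the intracellular branch of the cystatins. They bind tightly and reversibly in the active site of papain-like cysteine proteases such as cathepsins B, H, L and S, and they carry no signal peptide. The human genome has a single stefin A gene, CSTA, whereas the mouse has several copies side by side. Neutrophils and their precursors are known for strong stefin A expression in mice, and the proteins are also found in skin and other barrier epithelia.

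The total depth was 56608582 to 93708304 unique molecular identifiers (UMIs, 1 per captured transcript) per library. After filtering, 4634, 4063, 3051, 3236 and 3885 cells were kept in Het1, Het2, KO1, KO2 and KO3, in the order used throughout. Pairs of libraries shared 17 to 44 barcodes over all deposited barcodes and 0 to 7 among kept cells. By Xist and Y-linked transcripts, KO1 and KO2 were female and the other libraries male, so both Het lungs were male. Zswim8 itself was at 36.6 and 39.0 CPM (counts scaled to a fixed library total) in the Het and at 38.3, 39.2 and 41.1 CPM in the KO libraries. The sources used here do not say which part of the gene is deleted, and a 3' tag outside that part checks nothing, so the genotypes rest on the labels.

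All 8 genes are protein-coding and lie within 299 kb of chromosome 16, from 36156811 to 36455392 on GRCm38 (GENCODE M21). On the plus strand lie Stfa2l1 (chr16:36156811-36161953), Cstdc4 (chr16:36184212-36188111), Csta3 (chr16:36210403-36217788), Csta2 (chr16:36221468-36257444) and Stfa1 (chr16:36276951-36285373). On the minus strand follow Cstdc5 (chr16:36359382-36367748), Stfa2 (chr16:36403992-36408457) and Stfa3 (chr16:36450537-36455392). The annotation lists Cstdc4 as Gm5483, Csta3 as Gm5416, Csta2 as 2010005H15Rik and Cstdc5 as BC100530, with the same gene IDs. Their coding sequences are 291 to 384 bases long. The closest pairs are Cstdc4 with Csta2, at 96.9% identity over the coding sequence, and Stfa2 with Stfa2l1, at 96.4%. The closest partner of Cstdc5 is Csta3, at 88.3%. Stretches of 90 bases identical to a transcript of another gene made up 15.4% of the Cstdc4 transcript and 9.09% of the Csta2 transcript, in each case shared between these genes. Such stretches made up 16.6% of the Cstdc5 transcript, shared with Stfa1 and with the neighbour Cstdc6, and 4.24% of Stfa1, shared with Cstdc5. Stfa2 and Stfa2l1 shared 2.09% and 2.42% of theirs, and Stfa3 and Csta3 shared 0. Counts within the pairs Cstdc4 and Csta2, Stfa2 and Stfa2l1, and Stfa1 and Cstdc5 are therefore uncertain where reads fell in such stretches. Cstdc5 and Csta2 also overlap annotated genes on the opposite strand (Gm15845 and Gm10813), and the counting's strand setting is not given in the sources used here.

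The start regions are shown because 7 of the 8 genes share runs of letters there and Csta2 does not. Each line gives 90 bases, 5' to 3' on the gene's strand, from RefSeq promoters (GRCm38.p6, from 250 bases before to 50 bases after the annotated start), in which all 8 genes were found. Capitals mark the longest runs of letters present in at least 7 of the 8 promoters.
Stfa2l1 (chr16:36156745-36156834, plus strand): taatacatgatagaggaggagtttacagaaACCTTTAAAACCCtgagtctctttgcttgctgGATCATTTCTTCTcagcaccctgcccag
Cstdc4 (chr16:36184150-36184239, plus strand): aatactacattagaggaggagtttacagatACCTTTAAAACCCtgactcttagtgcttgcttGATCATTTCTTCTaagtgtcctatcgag
Csta3 (chr16:36210293-36210382, plus strand): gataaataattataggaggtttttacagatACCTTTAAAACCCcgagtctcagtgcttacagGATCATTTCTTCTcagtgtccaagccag
Csta2 (chr16:36221497-36221586, plus strand): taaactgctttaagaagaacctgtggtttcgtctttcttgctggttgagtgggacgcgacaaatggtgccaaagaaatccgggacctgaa
Stfa1 (chr16:36277085-36277174, plus strand): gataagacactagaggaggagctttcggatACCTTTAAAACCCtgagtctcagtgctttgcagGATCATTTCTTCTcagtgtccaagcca
Cstdc5 (chr16:36367523-36367612, minus strand): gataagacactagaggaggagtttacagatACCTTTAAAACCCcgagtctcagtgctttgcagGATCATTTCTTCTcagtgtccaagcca
Stfa2 (chr16:36408336-36408425, minus strand): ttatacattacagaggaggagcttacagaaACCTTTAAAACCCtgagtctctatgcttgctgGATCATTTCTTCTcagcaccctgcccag
Stfa3 (chr16:36455367-36455456, minus strand): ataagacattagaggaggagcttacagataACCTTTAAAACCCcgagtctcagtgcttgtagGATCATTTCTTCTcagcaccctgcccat

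Csta2 is the gene without capitals. The search for identical runs over the 300 bases found 2 runs of 13 letters, ACCTTTAAAACCC and GATCATTTCTTCT, each in 7 of 8 promoters. On either strand, the first was in 9 and the second in 10 of 32851 RefSeq promoters, or 0.0274% and 0.0304%, and the other promoters with the first run were those of Cstdc3 and Gm7260, 2 further genes. The first run began at position -36 in Stfa2l1, -32 in Cstdc4 and Stfa2, -33 in Stfa1 and -34 in Stfa3, where 0 is the RefSeq start. The first run began at -12 in Cstdc5 and at -80 in Csta3. For Stfa1, Stfa2 and Cstdc5 the RefSeq start lies inside the GENCODE locus given above, so these positions do not count from the locus end. The RefSeq start of Csta2 also lies inside its GENCODE locus, which is the longest of the 8. Whether the runs lie near another start of Csta2 was not tested. The second run began at 0 in Cstdc4, Stfa1 and Stfa2, at -4 in Stfa2l1, at -2 in Stfa3, at 21 in Cstdc5 and at -48 in Csta3. The letters TATAAA, searched on both strands, were in 0 of the 8 promoters and in 13.6% of all promoters. Over the 300 bases, the 7 promoters other than Csta2 were 70.3% to 91.7% identical to each other, and Csta2 was 55.0% to 59.7% identical to them. These matches describe letters near annotated starts and do not show that a factor binds there. Their part in the levels of the genes was not tested.

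Neutrophils were the main source of these transcripts. Cells were clustered with the 8 genes left out of the genes used for clustering, and clusters were named from markers that do not include them. The neutrophil-like class numbered 292, 310, 145, 200 and 197 cells. All 15 neutrophil markers were detected in it in every library, with a sum of 206991 to 222768 CPM. It held 78.7%, 83.2%, 84.8%, 82.0% and 83.6% of all UMIs of the 8 genes over all barcodes. Summed over the 8 genes, the level was 1308 and 1349 UMIs per 10000 UMIs in the Het and 1231, 1152 and 1169 in the KO libraries. About 1 transcript in 8 of a neutrophil-like cell was thus from this cluster, at 554 to 650 UMIs per cell. After each cell was thinned to 1000 UMIs, 100% of neutrophil-like cells in every library held a UMI of at least 1 of the genes. The same held for Cstdc4 alone, and for 99.9% ± 0.31 (SD, n = 5) of cells for Stfa1.

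Levels differed widely among the 8 genes. These levels are transcripts counted by their 3' ends, which are not scaled by length. Cstdc5 was at 370, 380, 348, 299 and 332 UMIs per 10000, or 346 ± 32.1 (SD, n = 5). Stfa1 was at 350, 361, 322, 314 and 335, or 336 ± 19.6, and Cstdc5 lay above Stfa1 in 3 of 5 libraries, so these 2 did not differ beyond their spread. Cstdc4 followed at 266, 265, 237, 245 and 232, or 249 ± 15.7, and its KO libraries all lay below the Het libraries, as they did for Stfa1 and Cstdc5. A lower group was formed by Stfa2l1 at 82.3 ± 6.25, Stfa2 at 76.6 ± 8.91, Csta2 at 71.5 ± 7.94 and Stfa3 at 62.4 ± 7.46. The spreads of neighbours in this group overlap, but within libraries Stfa2l1 lay above Stfa2 and Csta2 above Stfa3 in 5 of 5. Csta3 was lowest in every library, at 18.6, 19.9, 19.6, 17.1 and 14.1, or 17.9 ± 2.38. Among all genes in neutrophil-like cells, Cstdc5, Stfa1 and Cstdc4 ranked 3, 4 and 5. The genes ahead of them were S100a9 and S100a8, which encode the subunits of calprotectin, the most abundant cytosolic protein of neutrophils. Csta3 ranked 58.

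The neutrophil-like cells fell into 2 clusters that differ in maturity genes, and most of the 8 genes were higher in the less mature one. Cluster A held 72, 71, 35, 48 and 48 cells and expressed transcripts of secondary granule proteins, such as Camp (cathelicidin), Ltf (lactoferrin) and Ngp. These were at 69.0, 46.6 and 120 UMIs per 10000 there against 0.235, 0.0481 and 0.572 in cluster B. Cluster B held 220, 239, 110, 152 and 149 cells and had more Csf3r, the receptor for G-CSF, and Il1b. The primary granule genes Elane and Ctsg had 0 UMIs in either cluster, and Mpo had 0 in cluster A, so neither cluster holds the earliest granulocyte precursors by these genes. Cluster A made up 22.9% to 24.7% of the class in every library, so the mix of the clusters differed little between Het and KO lungs.

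**Figure D1:**
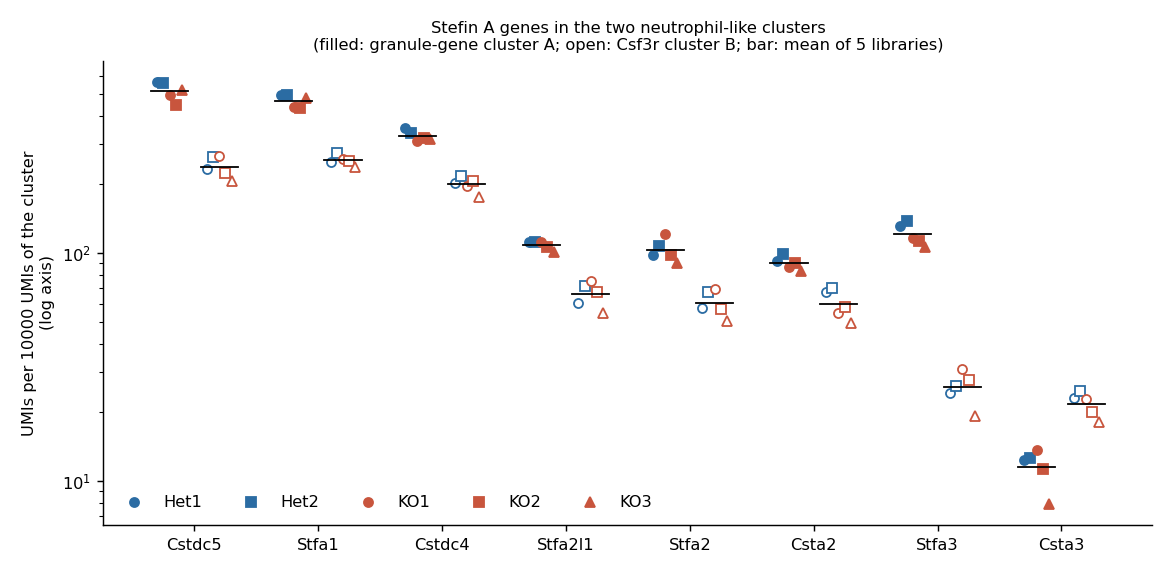
Each of the 8 stefin A genes in the neutrophil-like clusters, as UMIs per 10000 UMIs of the cluster on a log axis. Points are libraries (blue, Het; red, KO), filled for cluster A and open for cluster B, and bars are means of 5 libraries. For 7 genes the filled points lie above the open ones, and for Csta3 they lie below.

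Summed over the 8 genes, cluster A held 1743 ± 105 and cluster B 928 ± 75.7 UMIs per 10000 (SD, n = 5). Stfa3 differed most: it was at 121 ± 13.7 in cluster A and 25.7 ± 4.36 in cluster B, a log2 difference of 2.24 ± 0.26. Cstdc5 was 1.11 ± 0.18 higher in cluster A on the log2 scale, and Stfa1 0.87 ± 0.11. For Stfa2, Stfa2l1, Cstdc4 and Csta2 the log2 differences were 0.77, 0.73, 0.71 and 0.60. All 7 were higher in cluster A in 5 of 5 libraries. Csta3 went the other way, with 11.6 ± 2.20 in cluster A and 21.8 ± 2.63 in cluster B, and it was lower in cluster A in 5 of 5 libraries. S100a8 and S100a9, for comparison, were 0.90 and 0.76 higher in cluster A. Because clusters were formed from expression in the same cells, these differences are descriptions with no test.

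Across neutrophil-like cells of both clusters, levels of 7 of the genes were correlated, and those of Csta3 only weakly. Across the neutrophil-like cells of a library, the per-cell levels of Stfa1 and Cstdc5 had a mean correlation of 0.86 over the 5 libraries. Pairs among Stfa1, Stfa2, Stfa2l1, Stfa3, Cstdc4 and Cstdc5 had mean correlations of 0.67 to 0.86. Pairs of these with Csta2 were at 0.46 to 0.60, and pairs with Csta3 at -0.07 to 0.17. KO1 stood apart for Csta3, with pairs at 0.17 to 0.43 there and at -0.17 to 0.24 in the other libraries. Cells of a library share its depth and free RNA, and the pairs named above share some reads, so these correlations are descriptions. Csta3 also had the fewest UMIs, and the part of that in its low correlations was not tested. Cells of clusters A and B were pooled for these correlations. The other 7 genes were higher in cluster A and Csta3 was lower there. The part of this difference between the clusters in the correlations was not tested.

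**Figure D2:**
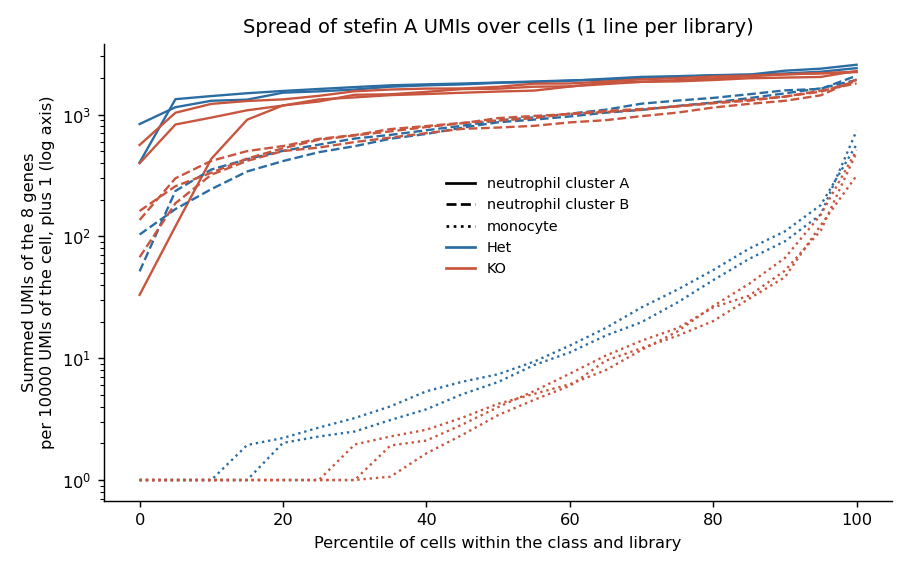
Summed UMIs of the 8 genes per 10000 UMIs of each cell, plus 1, by percentile of cells (log axis), with 1 line per library. Lines of the neutrophil-like clusters stay high except in the lowest cells, whereas monocyte lines start at no UMI and climb steeply at the right edge, with Het lines above KO lines.

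Genes outside the cluster whose pattern across 22 named classes and 5 libraries was most like the sum of the 8 were chosen by Pearson correlation of log levels over 105 class sums, among 1915 genes with at least 50 CPM in neutrophil-like cells. S100a9 came first (r = 0.98), then S100a8 (0.96) and Wfdc21 (0.92). Nlrp12, A530064D06Rik, Olfm4, Cebpe, Slfn4, Retnlg and 9830107B12Rik followed, at 0.87 to 0.89. The points share libraries and free RNA, and no p-value is given.

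Monocytes were a distant second, and they held the 8 genes in other proportions than neutrophils. The monocyte-like class numbered 349, 327, 113, 363 and 327 cells and held 35.7 and 38.6 UMIs of the 8 genes per 10000 in the Het libraries. In the KO libraries it held 17.8, 22.7 and 20.4, so the groups did not overlap. Stfa1 alone was at 21.3 and 21.6 in Het and 10.1, 13.1 and 12.0 in KO libraries. Stfa1 made up 57.8% ± 1.51 (SD, n = 5) of these UMIs, against 27.1% ± 0.94 in neutrophil-like cells. Stfa3 made up 14.8% ± 1.09 against 5.01% ± 0.27. Cstdc5 and Stfa2, by contrast, made up 2.46% ± 1.36 and 0.307% ± 0.24 in monocyte-like cells, against 27.8% ± 1.03 and 6.17% ± 0.60 in neutrophil-like cells. In red-cell barcodes, which carry free RNA, Cstdc5 made up 29.9% ± 1.26 and Stfa1 28.4% ± 0.57, close to the neutrophil-like shares.

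**Figure D3:**
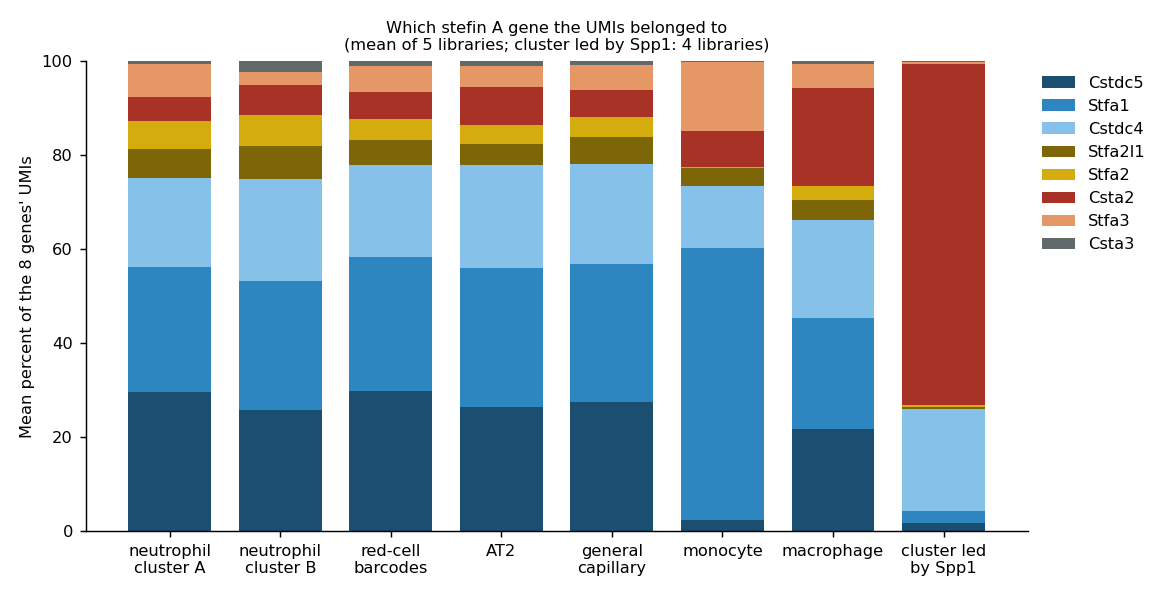
Percent of the UMIs of the 8 genes that each gene made up, as means over 5 libraries (4 for the cluster led by Spp1). Neutrophil-like clusters, red-cell barcodes, AT2-like and capillary-like cells show nearly the same mix, led by Cstdc5 and Stfa1, whereas Stfa1 leads in monocyte-like cells and Csta2 in the cluster led by Spp1.

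A minority of monocyte-like cells held most of the class's stefin A transcripts. Cells with over 100 UMIs of the 8 genes per 10000 numbered 39, 30, 8, 26 and 20, or 11.2%, 9.17%, 7.08%, 7.16% and 6.12% of the class. They held 54.3% to 66.5% of its stefin A UMIs. In these cells Stfa1 made up 56.2% to 62.9% and Cstdc5 0.950% to 5.98%, unlike in neutrophils. They also held 267 to 325 UMIs of S100a8 per 10000, against 10.98 to 23.5 in the other monocyte-like cells. S100a9 was at 64.99 to 139 against 0.616 to 1.99. Of monocyte genes, Ccr2 was at 4.62 to 7.43 against 4.22 to 7.70 per 10000. F13a1 was at 7.58 to 11.1 against 5.09 to 6.15 and Vcan at 4.94 to 7.53 against 1.76 to 2.94. F13a1, Vcan and Ly6c2 were higher in 5 of 5 libraries. Ms4a4c was at 0.680 to 2.71 against 1.78 to 5.73 and Ace at 0 to 0.0346 against 0.129 to 0.369, both lower in 5 of 5 libraries. Plac8 was lower in every library but KO1. Of neutrophil genes, Camp was at 0 to 2.11 against 0 to 0.128, Csf3r at 0.740 to 2.30 against 0.634 to 1.28 and Cxcr2 at 0.319 to 0.994 against 0.0920 to 0.212, the last higher in 5 of 5. In Het2, the cells over 100 per 10000 held Camp at 2.11, Ngp at 4.63 and Retnlg at 1.11. In such cells of the other libraries, Camp was at 0 and Ngp at 0 to 0.0303, with Ngp at 0.00920 to 0.102 in the other monocyte-like cells. Retnlg was at 0.471 in such cells of KO3 and at 0 to 0.0303 in those of Het1, KO1 and KO2. The part of neutrophil RNA in these cells was not tested. In the other monocyte-like cells the 8 genes summed to 6.86 to 15.4 per 10000, Stfa1 made up 48.7% to 55.5% and Stfa3 21.2% to 23.4%.

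In monocyte-like cells thinned to 1000 UMIs, 40.7% to 56.9% held a UMI of the 8 genes, and 20.4% to 43.1% held Stfa1. In AT2-like cells, alveolar epithelium that should lack these genes, the thinned share was 3.36% to 7.13%, and in capillary-like cells 2.19% to 12.7%. The macrophage-like class lay in this range, at 3.96% to 8.44%, so its share of cells with a UMI does not stand out from background, although its mix of the genes, given further on, differed. Without thinning, 64.6% to 87.7% of monocyte-like and 31.9% to 64.0% of macrophage-like cells held a UMI, at median depths of 8119 to 9455 and 13794 to 14778.5 UMIs per cell. The unthinned share was 35.2% to 69.0% in AT2-like cells, at median depths of 18409 to 38955. Thinning left out at most 3 cells of a class and library in the neutrophil-like, monocyte-like, macrophage-like and AT2-like classes.

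Csta2 led the 8 genes in a cluster of cells led by Spp1, Atp6v0d2, Inhba and Car4, of which Car4 and Inhba are known from alveolar macrophages. The cluster stays unnamed because none of the markers was among its 10 leading genes. It numbered 150, 159, 2, 13 and 21 cells, and KO1 is left out below for its 2 cells. Csta2 was at 4.86, 4.77, 5.77 and 7.13 UMIs per 10000 in Het1, Het2, KO2 and KO3. It made up 63.0%, 76.4%, 80.6% and 69.3% of the UMIs of the 8 genes there, against 5.75% ± 0.34 (SD, n = 5) in neutrophil-like cells. Its close copy Cstdc4 made up 15.3% to 28.3% and shares stretches with it, so its part may hold reads of Csta2. Stfa1 made up 0.510% to 4.19% and Cstdc5 0.668% to 2.54%. The median cell held 3 to 13 UMIs of the 8 genes, and the richest cell held 11.7% to 54.1% of the cluster's UMIs in the 4 libraries. Red-cell barcodes, by comparison, held Csta2 at 5.80% ± 0.65 of the 8 genes. Csta2 also led in a small unnamed cluster led by Inhba and Spp1 (25, 38, 0, 4 and 8 cells), where it made up 62.3% and 65.8% in Het1 and Het2, and 89.1% and 90.8% in KO2 and KO3.

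In the macrophage-like class, Csta2 made up 20.9% ± 4.96 (SD, n = 5) of the UMIs of the 8 genes, though their sum was only 1.89, 0.782, 0.463, 0.499 and 0.456 per 10000. The class joined 3 clusters. In the one with the most cells, which lacked the macrophage gene C1qa (0.0198 to 0.0741 per 10000), Csta2 made up 21.0% to 36.6%. In the cluster that held C1qa (32.1 to 41.0 per 10000), Csta2 made up 2.90% to 8.36%. The former held 604, 561, 187, 277 and 377 cells and the latter 115, 103, 214, 214 and 252. The mix of these clusters thus differed between Het and KO libraries, and only in KO1 did the C1qa cluster hold more cells than the other.

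All other named classes held little. Over these 20 classes, macrophage-like included, and 5 libraries, the median of the 100 values was 0.427 UMIs of the 8 genes per 10000, and 89 were under 2. In 11 of 105 class and library sets outside neutrophils (with at least 20 UMIs), a single cell held over 50% of the stefin A UMIs. The smooth muscle-like class of Het2, for example, fell from 5.88 to 0.674 per 10000 without its richest cell, and the AT2-like class of KO1 from 2.87 to 0.496. Without the richest cell, values of 2 or more remained in the erythroid class of Het1 and Het2, at 6.85 and 3.81, and in the basophil or mast class of KO2, at 3.00. Whether the richest cells are unremoved doublets was not tested.

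**Figure D4:**
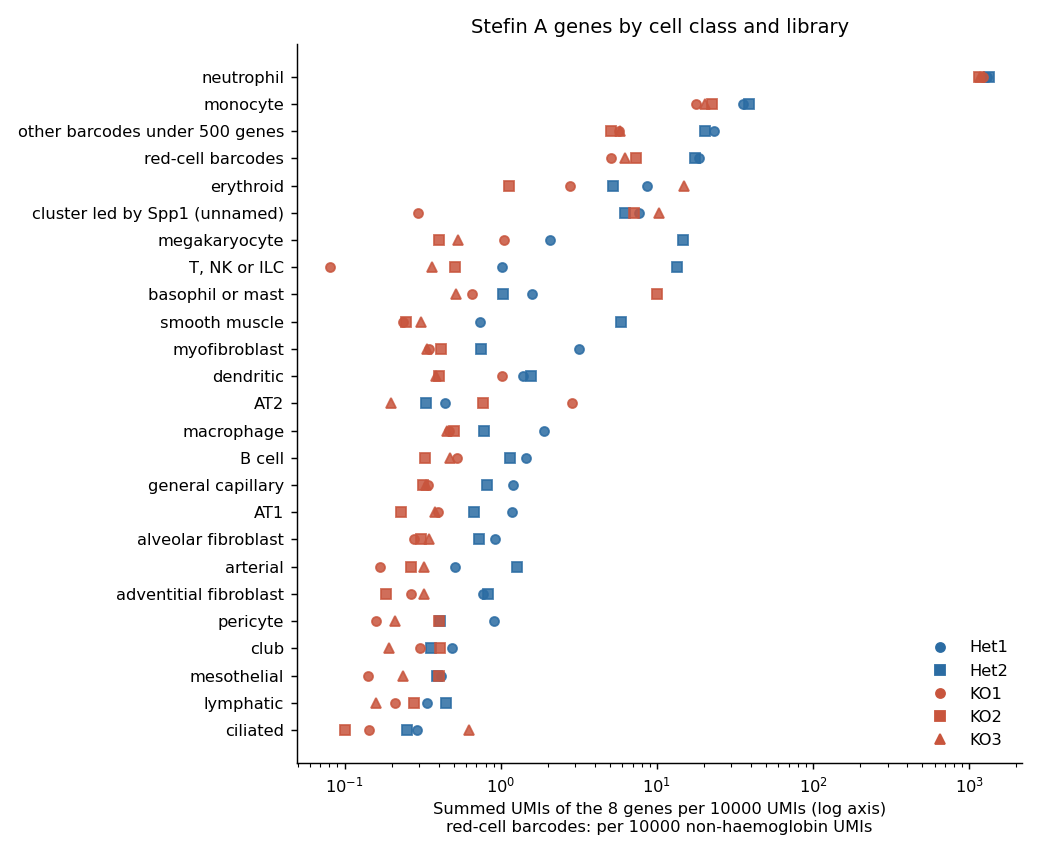
Summed UMIs of the 8 genes per 10000 UMIs, by class and library, on a log axis (red-cell barcodes per 10000 non-haemoglobin UMIs). Neutrophil-like cells lie above 1000 and monocyte-like cells between 17.8 and 38.6. Most other classes lie under 2, with Het points mostly to the right of KO points.

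Free stefin A RNA was measured in barcodes of red cells (over 50% haemoglobin UMIs and under 500 genes), which should not make it. There were 6596, 4195, 1865, 3972 and 3163 such barcodes. They held 18.7 and 17.6 UMIs of the 8 genes per 10000 non-haemoglobin UMIs in the Het and 5.10, 7.40 and 6.28 in the KO libraries. The groups did not overlap, and the Het values were the higher ones. Per barcode this was 0.930 and 0.689 UMIs against 0.273, 0.328 and 0.315. Per UMI of S100a8 and S100a9, the 8 genes gave 0.709 ± 0.020 UMIs in red-cell barcodes and 0.682 ± 0.050 in neutrophil-like cells (SD, n = 5). In neutrophil-like cells the groups did not overlap, at 0.733 and 0.740 in Het and 0.642, 0.642 and 0.653 in KO libraries. Nor did they in red-cell barcodes, at 0.737 and 0.720 against 0.710, 0.687 and 0.693. In monocyte-like and macrophage-like cells the ratio was 0.551 ± 0.043 and 0.217 ± 0.060. The groups did not overlap in monocyte-like cells, at 0.599 and 0.592 against 0.523, 0.544 and 0.499, and overlapped in macrophage-like cells.

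Free stefin A RNA was lower in the KO libraries, and the low levels of the other classes are set beside it. Non-haemoglobin UMIs per red-cell barcode overlapped between the groups, with medians of 424.5 and 321 in the Het and 473, 344 and 420 in the KO libraries. In a look added after seeing the data, without the richest cell of each class and library, KO lay below Het with no overlap in 16 of the 20 other classes. These classes come from the same 5 libraries and are not independent. In capillary-like cells, for example, Het held 0.994 ± 0.28 (SD, n = 2) and KO 0.325 ± 0.013 (SD, n = 3) per 10000. Some sets were small: the B cell class of KO1, KO2 and KO3 held 1, 1 and 2 UMIs of the 8 genes. In the sums compared below, KO lay below Het with no overlap for 13.1% to 23.6% of all genes. That share was not counted for the 20 classes without their richest cells, so nothing is read from the 16. The part of free RNA in the Het against KO difference of these classes, and of the monocyte-like and macrophage-like classes, was not tested.

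Summed over all kept cells, each of the 8 genes was lower in every KO than in every Het library. In such a sum, fewer neutrophils and less RNA per neutrophil cannot be told apart. Stfa1 was at 924 and 977 CPM in the Het and 602, 678 and 594 CPM in the KO libraries, a log2 fold change (KO over Het) of -0.61 ± 0.079 (SE). Cstdc5 was at -0.65 ± 0.082, Cstdc4 at -0.61 ± 0.098, Stfa3 at -0.73 ± 0.095 and Csta2 at -0.76 ± 0.10. Csta3, Stfa2l1 and Stfa2 were at -0.64, -0.52 and -0.52. In edgeR's quasi-likelihood test with Benjamini-Hochberg adjustment over all genes, 5 of 8 were called, where 4.08% of 17734 genes tested were called. Values of KO below Het with no overlap were found in 8 of 8, where 23.6% of all genes had them. The genes were chosen for this contrast, so nothing is read from either count. With sex as a covariate 0 of 8 were called, at log2 fold changes of -0.68 to -1.05, and without Het1 or without Het2 also 0 of 8. Without KO3, only Stfa3 was called.

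Within neutrophil-like cells the values lay closer together. Summed over the 8 genes, Het held 1328 ± 29.2 (SD, n = 2) and KO 1184 ± 42.0 (SD, n = 3) UMIs per 10000, with no overlap. With doublets kept the difference was -87.6 in place of -144, and the groups overlapped, with KO1 at 1243 and Het1 at 1212. Per gene, log2 fold changes ran from -0.16 ± 0.15 (SE) for Stfa2 to -0.38 ± 0.12 for Stfa3, with Csta2 at -0.37, Cstdc5 at -0.29, Csta3 at -0.28, Cstdc4 at -0.25, Stfa1 at -0.23 and Stfa2l1 at -0.16. The median was -0.26, against 0.02 for all genes tested, and -0.17 when scaled by library size alone. In edgeR's test 0 of 8 were called (3 at an unadjusted p under 0.05, Stfa3, Csta2 and Cstdc5), where 0.106% of 5665 genes were called. DESeq2 also called 0 of 8. Without KO1, Stfa3 was called, and with no filter on low counts Stfa3 and Csta2. On TMM-scaled CPM, KO lay below Het with no overlap in 6 of 8, where 13.1% of genes did, and Stfa2 and Stfa2l1 overlapped. As UMIs per 10000, Csta3 overlapped too, which leaves 5 of 8. In TMM-scaled CPM KO1 was highest for Stfa2, at 8955 CPM against 8032 and 8642 CPM in Het, and lay between the Het libraries for Stfa2l1. Within cluster A, Het held 1852 and 1855 UMIs of the 8 genes per 10000 and KO 1688, 1621 and 1700. Within cluster B, the groups overlapped, at 920 and 1016 against 974, 914 and 815.

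Neutrophil-like cells hold most of the transcripts the genes were chosen on, so their share of cells is a description too. It was 6.30% and 7.63% of kept cells in the Het and 4.75%, 6.18% and 5.07% in the KO libraries. The KO lungs were lower by 1.63 percentage points (6.97 ± 0.94 against 5.33 ± 0.75, SD), with no overlap. With a stricter filter (1000 genes or more, mitochondrial UMIs up to 10%) the difference was -1.06 points (KO minus Het), and the groups overlapped, at 5.67% and 7.47% against 5.72%, 5.74% and 5.08%.

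In monocyte-like cells, KO lay below Het with no overlap for 8 of 8 genes, where 14.5% of genes did, and edgeR's test called Stfa1, Stfa2l1 and Stfa3, where 0.127% of 9472 genes were called. Stfa1 was at -0.92 ± 0.12 (SE, log2), Stfa3 at -0.96 ± 0.14, Stfa2l1 at -1.26 ± 0.18 and Csta2 at -0.54 ± 0.13. Without KO1 all 8 were called. Without Het1 only Cstdc5 and without KO2 only Stfa2l1 was called, and without Het2 or without KO3, or with sex as a covariate, none was. At Leiden resolution 2 none was called either (median -0.81 in place of -1.11), and with library size alone only Stfa1 was. Neutrophil granule genes differed beside them: Camp was at -5.36 ± 0.59 and Ltf at -4.19 ± 0.46 (adjusted p = 0.0215 for each in edgeR's test), at 0.307 and 1.56 CPM in the KO lungs. The 15 neutrophil markers summed to 6613 and 7345 CPM in monocyte-like cells of the Het and to 3657, 4608 and 4542 CPM in those of the KO libraries, with 0 to 4 of them at 0. Most of this sum was S100a8 and S100a9, which were also high in the monocyte-like cells rich in stefin A transcripts. Together they were at 59.5 and 65.3 UMIs per 10000 in the Het and 34.0, 41.7 and 40.8 in the KO libraries. The 12 monocyte markers summed to 11211 and 10957 against 7970, 6879 and 7910 CPM, none at 0. Of the 8 genes on the secondary granule list, all tested in monocyte-like cells, 2 were lower in KO lungs and 0 higher. The part of neutrophil RNA in the monocyte-like difference was not tested.

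In macrophage-like cells the 7 genes with enough counts to test were at -0.93 to -2.43, all called, where 17.2% of 12022 genes were called. KO lay below Het with no overlap for 7 of 7, where 23.4% of genes did. The clusters of the class were mixed differently in Het and KO lungs, and the part of that mix in these values was not tested. Without Het1, 2 of 7 were called, and the median was -0.60 in place of -1.60. Without KO2, 3 were called, without KO3, 2, and with sex as a covariate 0. In Het1, 2 macrophage-like cells held over 100 UMIs of the 8 genes per 10000, and the richest held 45.7% of the stefin A UMIs of the C1qa cluster. In red-cell barcodes, 7 of 8 were called, all but Stfa3, where 0.746% of 8579 genes were called. KO lay below Het with no overlap in 8 of 8, where 15.1% of genes did. Without Het1, or with sex as a covariate, 0 of 8 were called there, and without Het2 only Stfa2 and Csta3.

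The proteases that stefins inhibit, and other cystatins, were measured in the same cells. In neutrophil-like cells 6 of 10 cysteine cathepsin genes could be tested, and in edgeR's test 0 were called in either direction. Ctsl, for cathepsin L, was highest, at 402 ± 47.9 CPM in Het and 335 ± 29.8 in KO, followed by Ctsb at 124 ± 19.4 and 122 ± 4.66. Ctsh and Ctsc, for the aminopeptidases cathepsin H and dipeptidyl peptidase 1, were at 59.8 and 56.4 CPM in Het and at 79.5 and 84.0 in KO. The cathepsins' median log2 fold change there was 0.39, against 0.02 for all genes. Over all kept cells, Ctsh, Ctsc and Ctsb were higher, at 619, 550 and 402 CPM in Het. Ctss and Ctsz were at 346 and 274 CPM in that sum, against 24.9 and 53.6 in neutrophil-like cells. Ctsl went the other way, at 226 CPM in that sum. The part of free RNA in the neutrophil-like values was not tested. Of 13 other cystatins, 4 could be tested there and 0 were called. Cst3, the secreted cystatin C, was at 456 ± 34.2 and 445 ± 56.3 CPM, and Cstb, the stefin of most tissues, at 145 ± 0.94 and 124 ± 25.9. Cstdc6, the neighbour of Cstdc5, was at 190 ± 4.14 and 172 ± 19.98 CPM, and Csta1 at 11.03 ± 7.73 and 11.3 ± 3.75.

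Other neutrophil genes were compared in the same way. In neutrophil-like cells, 0 of 8 genes on the secondary granule list and 0 of 14 late neutrophil genes were called, with medians of -0.32 and -0.06. The secondary granule list also holds Ltb4r1, which encodes a receptor and not a granule protein, at -0.03. Ngp, Lcn2, Camp and Ltf, the highest of the granule genes, were at -0.44, -0.23, -0.60 and -0.59. S100a9, S100a8, Retnlg and Il1b, the highest of the late genes, were at -0.04, -0.10, -0.05 and -0.20. None of 5 primary granule genes had enough counts there. In the sum over all kept cells, 3 of 8 secondary granule genes were lower in KO lungs, Ltf, Lcn2 and Cd177, and 4 of 14 genes on the late neutrophil list, S100a8, Il1r2, Ccl6 and Wfdc17, where 533 of 17734 genes were lower. With sex as a covariate, 1 gene was called in this sum, and it was higher. Most UMIs of Ccl6 and Wfdc17 were outside neutrophils: in Het1, Ccl6 had 45261 UMIs in kept cells and 627 in neutrophil-like cells, and Wfdc17 had 14115 and 545. Within neutrophil-like cells both were at -0.04. The lists' medians in that sum were -0.80 and -0.41, beside -0.62 for the 8 stefin A genes and 0.01 for all genes. Of the cathepsins, Ctss was lower there (-0.37 ± 0.060, SE, adjusted p = 0.0359 in edgeR's test), and of the other cystatins Cstb (-0.35 ± 0.064, adjusted p = 0.0442) and Cst8 (-1.47 ± 0.26, adjusted p = 0.0421).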

How the data were processed

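Single-cell 3' libraries of 5 lungs (2 Het, 3 KO) were analysed from the counts (UMIs of each gene in each barcode, not normalized) that the authors deposited. Per the file headers these came from Cell Ranger 4.0.0, on build mm10 per the submitters' processing notes. The annotation, the strand setting and the filter that chose the deposited barcodes are not given in the sources used here. Kept barcodes had 500 or more genes and no more than 15% of UMIs from mitochondrial genes, and the highest doublet scores against simulated doublets were removed at 0.8% per 1000 cells. Counts were clustered (scanpy 1.11.5, Leiden resolution 1, 2000 variable genes without the 8 stefin A genes, 30 components), and 39 clusters were named from marker lists. A class needed at least 4 markers, each in at least 20% of cells. Parts of this naming rule were settled with the clusters in view, and 9 clusters stayed unnamed. The names are rebuilt and may differ from the study's own.

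UMIs were summed per library and class, and compared with edgeR 4.0.16 (two-sided quasi-likelihood test after TMM scaling and removal of genes with low counts, with a call at a Benjamini-Hochberg adjusted p under 0.05 over all genes tested). Cells are not replicates. With 1 lung per library, p-values measure the spread between lungs. DESeq2 1.42.0, other filters and resolutions, each library left out, sex and replicate number were tried as alternatives. On simulated data with log2 changes of 1, the share of changed genes recovered was 64.1% for all kept cells, 53.7% for neutrophil-like, 59.8% for monocyte-like and 76.7% for macrophage-like cells and 23.2% for red-cell barcodes. The 8 genes and the gene lists were chosen with earlier results of these data known. Named genes were the 8 in every comparison, up to 4 per list with the highest level in neutrophil-like cells, those called, and the 10 genes with the most similar pattern. Camp, Ltf, Csf3r and other genes that describe clusters were named after the clusters were seen. Promoters came from RefSeq (GRCm38.p6) and loci from GENCODE M21, which held 32158 of the 32285 gene IDs. The submitters' build, mm10, is the same assembly.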

Additional observations from a re-analysis of the deposited data

How the results depend on the processing

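Counts of genes called between Het and KO depended strongly on the setting. For all kept cells (724 genes), DESeq2 called 2126, a fit with the replicate number as a block (replicate block) called 8, and a sex covariate left 1. For neutrophil-like cells (6 genes) the count was 14 with library size alone, 40 with DESeq2, 167 with no filter on low counts, 0 with a sex covariate and 1 with doublets kept. For monocyte-like cells (12 genes) it was 46 with DESeq2, 415 with no filter, 63 with the replicate block, 0 with a sex covariate and 3 at Leiden resolution 2. For macrophage-like cells (2071 genes) it was 932 with a sex covariate. For red-cell barcodes (64 genes) it was 30 with library size alone, 319 with no filter, 361 with the replicate block, 0 with a sex covariate and 121 with barcodes under 200 genes. With each library left out in turn, the counts ran from 2 to 958 for all kept cells, 0 to 100 for neutrophil-like, 1 to 421 for monocyte-like and 946 to 2195 for macrophage-like cells, and 0 to 236 for red-cell barcodes. The causes were not tested. The difference in summed stefin A UMIs per 10000 in neutrophil-like cells (-144, KO minus Het) was -87.6 with doublets kept. Csta2 in macrophage-like cells reversed, from -0.93 to 0.33 (log2), at Leiden resolution 0.5.

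Log2 fold changes of the 8 genes lay below 0 in all 112 values over settings for all kept cells, all 128 for neutrophil-like and for monocyte-like cells, 111 of 112 for macrophage-like cells and all 96 for red-cell barcodes. The settings refit the same libraries, and the genes were chosen for being lower in KO lungs, so nothing is read from these counts. The labels give no meaning to shared replicate numbers. Deviations of same-numbered samples correlated at -0.13 and -0.15 for all kept cells, 0.10 and 0.05 for neutrophil-like cells and 0.20 and 0.15 for red-cell barcodes. Under the block, 0, 0, 5, 3 and 8 of the stefin A genes were called in the 5 sums, in the order above. With both Het lungs male, sex and genotype were only partly separable, and Het groups of 2 lungs limit every comparison.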
